A study of Mus musculus with 4 samples.

Results

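The AP-1 and Egr immediate early genes were examined in the infarcted left ventricle of KDM5B-KO and WT mice. They comprise 10 genes: the Fos family (Fos, Fosb, Fosl1 and Fosl2), the Jun family (Jun, Junb and Jund), Egr1, Ier2 and Ier3. The members were taken from a list of gene names, chosen with earlier results of these data known. Non-control probes bearing these names numbered 13, for 10 of the 20048 genes with a RefSeq symbol on the array. KDM5B is a histone demethylase. The KO mice carried a CRISPR/Cas9 deletion of the part of Kdm5b that encodes the JmjC domain, with a frameshift and with no tissue-specific driver named, on a C57BL/6 background, and were compared with corresponding WT mice. All were 8 to 10 weeks old at surgery and labelled male, and in all of them the left anterior descending artery was permanently tied, so no uninjured heart was among the samples. Total RNA of the left ventricle was taken at day 7 after myocardial infarction and hybridised to 4 single-colour Agilent arrays, WT 2, WT 3, KO 2 and KO 3. The labels do not say how infarct and remote muscle were sampled, or whether each array held RNA of 1 animal.

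Immediate early genes are transcribed within minutes of a stimulus from promoters that are already poised, and most of their transcripts are short-lived. Fos and Jun proteins pair through leucine zippers to form the AP-1 transcription factor, whose makeup changes as the Fos and Jun members replace each other, while Egr1 is a zinc finger factor that binds GC-rich sites. In the heart these genes respond to stretch, ischaemia, neurohormones and growth factors.

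The promoters of Fos, Fosb, Jun and Junb are shown because Fos and Fosb were the members whose genotypes separated, and Jun and Junb are the partner genes whose values ran in opposite order over the KO arrays. Each is the 250 bases before the RefSeq start site on build GRCm38.p6, read 5′ to 3′ on the gene's own strand, and the capitals mark matches to the core of the cyclic AMP response element, the TATA box, the CCAAT box and the MEF2 site. The intervals are chr12:85473640-85473889 on the plus strand for Fos, and on the minus strand chr7:19310046-19310295 for Fosb, chr4:95052223-95052472 for Jun and chr8:84978749-84978998 for Junb.
Fos: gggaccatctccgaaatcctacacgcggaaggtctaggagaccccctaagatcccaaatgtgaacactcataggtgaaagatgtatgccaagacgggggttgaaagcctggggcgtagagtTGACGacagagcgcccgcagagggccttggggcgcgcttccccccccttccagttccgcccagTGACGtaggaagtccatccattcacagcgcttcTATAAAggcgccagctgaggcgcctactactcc
Fosb: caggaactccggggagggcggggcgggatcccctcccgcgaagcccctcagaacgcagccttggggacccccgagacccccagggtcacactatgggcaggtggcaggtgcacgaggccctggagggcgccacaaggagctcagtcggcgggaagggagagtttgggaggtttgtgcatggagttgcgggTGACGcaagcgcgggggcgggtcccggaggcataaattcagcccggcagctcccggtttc
Jun: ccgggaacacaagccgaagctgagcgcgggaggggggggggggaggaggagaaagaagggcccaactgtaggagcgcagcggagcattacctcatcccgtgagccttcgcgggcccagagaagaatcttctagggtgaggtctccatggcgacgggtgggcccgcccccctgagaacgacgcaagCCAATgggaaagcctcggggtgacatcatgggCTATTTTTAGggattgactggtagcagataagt
Junb: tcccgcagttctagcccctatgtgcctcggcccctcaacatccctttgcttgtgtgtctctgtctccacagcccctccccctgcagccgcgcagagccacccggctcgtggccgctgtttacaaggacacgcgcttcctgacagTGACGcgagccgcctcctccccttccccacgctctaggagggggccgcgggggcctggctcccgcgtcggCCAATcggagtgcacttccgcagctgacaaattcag

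Of the 10 members, 7 had a promoter in the RefSeq table and no entry was held for Fosl1, Ier2 and Egr1. Both strands were searched for 8 motifs, some of which contain others, since TGACGTCA includes the core TGACG. The core TGACG, the 5′ part of the cyclic AMP response element, lay in the promoters of Fos, Fosb and Junb, against 17.8% of 32851 promoters. In Fos it occurred at 129 to 125 and at 66 to 62 bases before the start, in Fosb at 60 to 56 and in Junb at 106 to 102. TATAAA lay in the Fos promoter at 33 to 28 bases before the start and in 12.4% of all promoters. CCAAT lay in those of Jun (65 to 61 bases before the start), Junb (36 to 32) and Ier3, and in 33.8% of all promoters. A MEF2 site, the element of a muscle transcription factor, was matched in Jun at 33 to 24 bases before the start and in 0.508% of all promoters. The full element TGACGTCA was found in 1.55% of promoters, the AP-1 site TGACTCA in 4.46%, the Egr site GCGTGGGCG in 0.536% and the CArG box of serum response factor in 1.47%. None of the 7 member promoters held a match to these patterns in this window. Variants of the sites and bases further before the start were not searched. These matches describe letters and were not tied to binding.

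Levels below are on the log2 scale after subtraction of each array's 75th percentile, and every difference is KO minus WT. The genotypes were compared by limma, with Benjamini-Hochberg adjustment over 28305 tested probes, and a change was called at an adjusted p under 0.05 with a fold change over 2. Nothing in the labels ties arrays of the same number to each other, so the differences at number 2 (KO 2 minus WT 2) and number 3 (KO 3 minus WT 3) are descriptions.

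Before the members, the arrays themselves were checked. Kdm5b was lower on both KO arrays than on both WT arrays, at -0.87 and -1.81 on WT 2 and WT 3, and -2.40 and -2.26 on KO 2 and KO 3 for its brighter probe. Its difference of -0.996 with a standard error of 0.40 had an adjusted p of 0.9999 in limma. Xist, the transcript that coats the inactive X chromosome, was bright on arrays 2 of both genotypes and near background on arrays 3, whereas the Y-linked Ddx3y showed the opposite, so the arrays numbered 2 went against the label male. Each genotype held 1 array of either kind. The difference of a member at number 3 is therefore its value without the arrays that went against their label. It was 0.201 for Fosb, 0.102 for Fosl2, -0.025 for Jund, 0.135 for Ier2 and 0.083 for Ier3. For the other members it is given below. Cell type marker lists differed between arrays of the same genotype. The 12 cardiomyocyte markers, all detected on every array, had a mean of 6.66 and 5.49 on WT 2 and WT 3, and 7.59 and 4.73 on KO 2 and KO 3. The 5 tested neutrophil markers had a mean of 0.36 and 0.71 on WT 2 and WT 3, and -2.28 and 0.79 on KO 2 and KO 3. No probe was matched to Ly6g by name, so it was not measured, and Cxcr2 was not detected on every array. As summed levels (linear signal over the array's 75th percentile), the cardiomyocyte markers spanned 1000 to 2040 in WT and 723 to 3560 in KO, the 8 macrophage markers 307 to 333 and 180 to 380, and the neutrophil markers 26.5 to 33.2 and 4.89 to 33.8. In bulk tissue, fewer cells of a type and less RNA per cell cannot be told apart. All 4 arrays lay on 1 slide, with WT at positions 1 and 2 and KO at positions 3 and 4, so position and genotype cannot be told apart.

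Of the 10 members, none passed the threshold, as 0% of all probes did. Fos was higher on both KO arrays, at 1.74-fold on average, and Fosb was higher on both at 1.19-fold. The other 8 members overlapped between genotypes. Separation with KO above WT was thus seen in 2 of 10 members against 13.3% of 15061 tested genes, and separation with KO below WT in 0 members against 8.9% of genes. A fold change over 2 in the mean was reached by 0 members against 3.49% of genes, and an unadjusted limma p under 0.05 by 0 members against 1.43% of genes, the lowest being 0.144 for Fos. On average 5 members were higher and 5 lower in KO, where 44.9% of all genes were lower, but 8 were higher and 2 lower with arrays shifted by their median, where 41.1% of all genes were lower. The median difference over the members was 0.035 and that over all tested genes 0.036. All 13 member probes were well above background on every array and none was saturated.

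**Figure D1:**
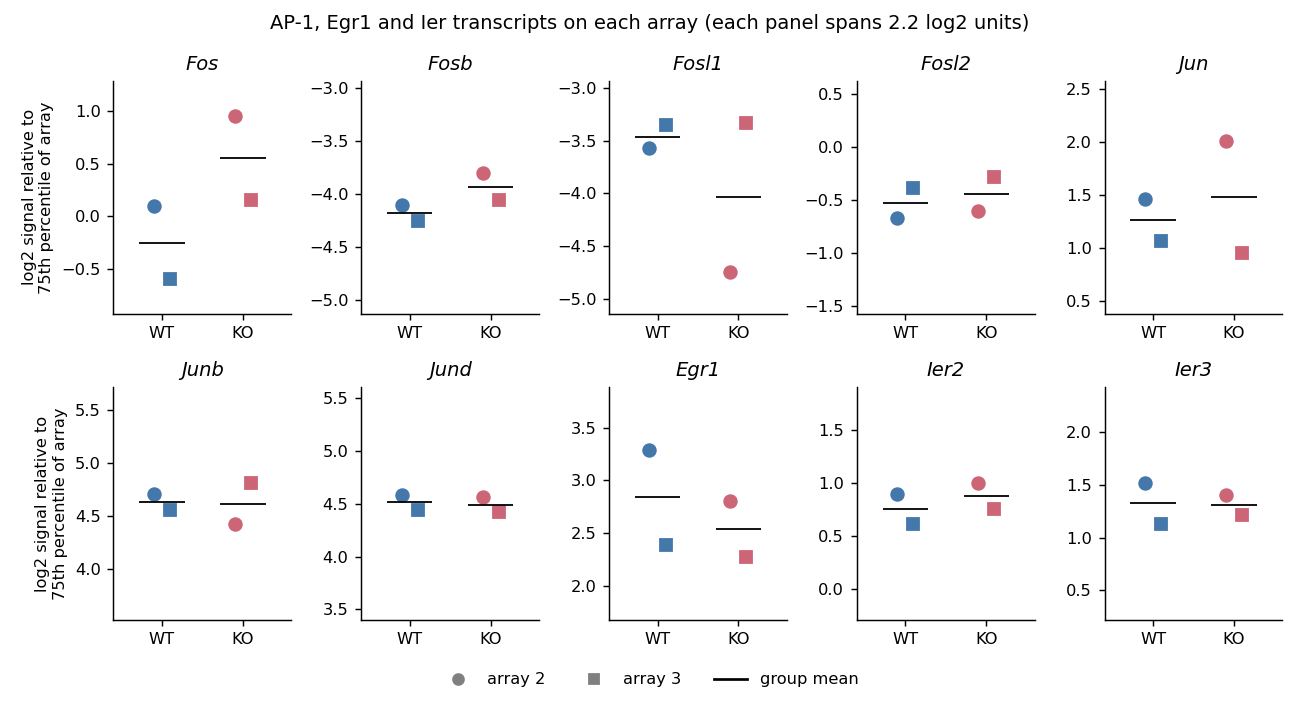
Log2 signal less each array's 75th percentile for the 10 genes, with circles for arrays numbered 2, squares for arrays numbered 3 and lines for the group means (n = 2). Fos and Fosb have both KO arrays above both WT arrays, while the other 8 genes overlap.

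The Fos family supplies the AP-1 partners that cannot pair with themselves. Fos, its founding member, was measured at chr12:86817900-86817959 (mm9, the build of all probe positions). Its signal was 0.095 and -0.59 on WT 2 and WT 3, and 0.95 and 0.15 on KO 2 and KO 3. KO 2 stood well above the rest, whereas KO 3 exceeded WT 2 by a small margin. The group means were -0.25 ± 0.49 in WT and 0.55 ± 0.57 in KO (SD, n = 2). The difference of 0.80 had a standard error of 0.44 (95% interval -0.44 to 2.04, limma adjusted p = 0.9999). It was nearly the same at both numbers, 0.86 at number 2 and 0.75 at number 3. In both genotypes array 2 was higher than array 3, by 0.69 in WT and 0.80 in KO, gaps similar in size to that between the genotypes. KO 2 had the highest cardiomyocyte marker mean as well, whereas KO 3 had the lowest, and the part of cardiomyocyte content in the Fos value was not tested.

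The Fos probe was printed 10 times on each array, and so was the Jun probe. Over the spots kept, the SD on an array was between 0.032 and 0.062 for Fos, with 2 of the 10 spots on KO 3 set aside as outliers. The spots of KO 3 ranged from 0.095 to 0.20 and those of WT 2 from 0.0080 to 0.19. The spots of these arrays overlapped, while those of WT 3 lay lower, at -0.69 to -0.48, and those of KO 2 higher, at 0.90 to 1.04. The separation of the Fos groups thus turned on the gap between KO 3 and WT 2, which was small beside the ranges of their spots.

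**Figure D2:**
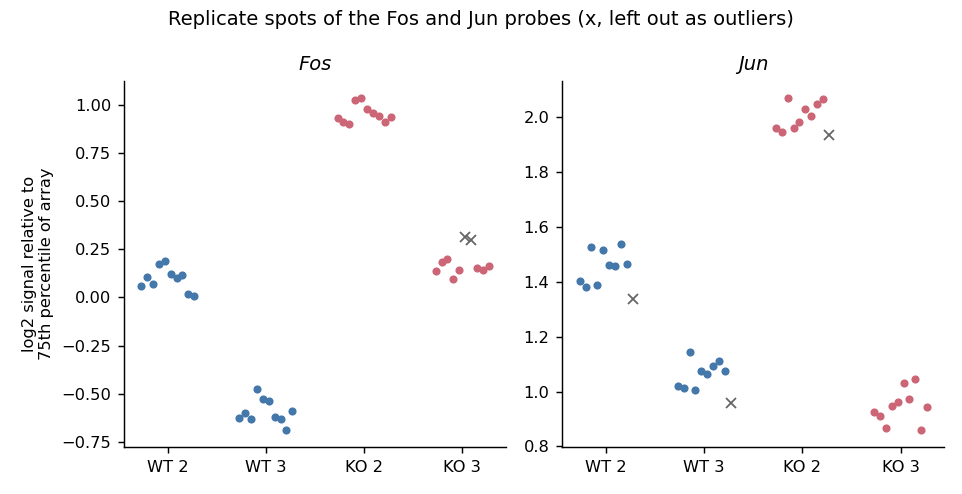
Log2 signal less each array's 75th percentile at each replicate spot of the Fos and Jun probes, 10 spots an array, with crosses for spots set aside as outliers. For Fos, spots of KO 2 lie highest and those of WT 3 lowest, and spots of WT 2 and KO 3 overlap. For Jun, KO 2 lies highest and KO 3 lowest.

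Fosb, a close relative of Fos whose truncated splice form accumulates in chronically stimulated neurons, was measured at chr7:19888477-19888536. It gave -4.11 and -4.26 on WT 2 and WT 3, and -3.81 and -4.06 on KO 2 and KO 3. KO arrays thus exceeded WT arrays without overlap, KO 3 by little. KO differed by 0.25, standard error 0.23 (95% interval -0.40 to 0.91). This was a dim probe, with processed signals of 50.8, 50.9, 43.5 and 53.1 on the same arrays, so its unscaled signal was lowest on KO 2 and its order rested on the scaling of that array, whose 75th percentile of 607.6 was the lowest of the 4 arrays.

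Fosl1 (Fra-1) lacks the transactivation domain of Fos and is itself an AP-1 target. At chr19:5455496-5455555 it measured -3.57 and -3.35 on WT 2 and WT 3, and -4.74 and -3.33 on KO 2 and KO 3. KO 2 stood apart as the lowest array, and KO 3 was the highest, barely above WT 3. The mean difference was -0.58 with a standard error of 0.56 (95% interval -2.17 to 1.02), the largest standard error among the members, and the KO arrays had an SD of 1.0. At number 2 Fosl1 was 2.25-fold lower in KO and at number 3 the difference was 0.020. A fold change over 2 was thus seen in 1 member at number 2, against 16.3% of genes, and in 0 members at number 3, against 4.36% of genes. The signal on KO 2 was 22.7, and with normexp background correction the mean difference became -0.0020. KO 2 was also the array with the lowest mean of the macrophage markers, 2.36 there and 3.52, 4.003 and 4.24 for WT 2, WT 3 and KO 3, and of the neutrophil markers given above, as well as of the fibroblast, smooth muscle, T cell and B cell markers. The smooth muscle markers were mixed, with Smtn highest on KO 2 and Acta2 lowest there. The part of all these cell types in the Fosl1 value was not tested.

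Fosl2 (Fra-2), an AP-1 subunit that is expressed for longer after a stimulus, had 2 probes. The brighter, at chr5:32459624-32459683, gave -0.67 and -0.39 on WT 2 and WT 3, and -0.61 and -0.28 on KO 2 and KO 3. The groups overlapped, and array 3 was higher than array 2 in both genotypes. Its difference was 0.083 with a standard error of 0.26 (95% interval -0.65 to 0.81). The dimmer probe, at chr5:32455088-32455147, gave -4.85, -5.14, -4.72 and -4.63 in the same order, with both KO arrays above both WT arrays and a difference of 0.33. Its processed signals were 30.3, 27.6, 23.1 and 35.7 on the same arrays. The unscaled signal of this probe was thus lowest on KO 2, and its order rested on the scaling of that array. After scaling, the probes differed in whether the genotypes separated.

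The Jun proteins pair with Fos proteins, with each other or with ATF proteins. Jun was measured at chr4:94715864-94715923 and gave 1.46 and 1.07 on WT 2 and WT 3, and 2.01 and 0.95 on KO 2 and KO 3. The KO arrays held the highest and the lowest value and enclosed both WT arrays. The mean difference was 0.21 with a standard error of 0.46 (95% interval -1.098 to 1.53), made of 0.55 at number 2 and -0.12 at number 3. The spot SD on an array was between 0.047 and 0.061, far below the gap of 1.06 between the KO arrays. The KO arrays also differed in the cardiomyocyte marker mean, and over the 4 arrays that mean and Jun fell in the same order, KO 2, WT 2, WT 3 and KO 3. The part of cardiomyocyte content in the Jun value was not tested.

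Junb, often a brake on Jun-driven transcription, had 2 probes. The brighter, at chr8:87500881-87500940, gave 4.71 and 4.55 on WT 2 and WT 3, and 4.42 and 4.82 on KO 2 and KO 3. As with Jun the KO arrays enclosed the WT arrays, but in the reverse order, with KO 2 lowest and KO 3 highest. KO differed by -0.013, standard error 0.25 (95% interval -0.74 to 0.71), and -0.29 at number 2 against 0.26 at number 3. The other probe, at chr8:87500843-87500902, overlaps the first in sequence and gave a difference of 0.032, with -0.17 at number 2 and 0.23 at number 3.

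Jund, a member with substantial expression in resting cells, had the smallest range over the arrays among the members, 0.17. At chr8:73224436-73224495 it gave 4.59 and 4.44 on WT 2 and WT 3, and 4.57 and 4.42 on KO 2 and KO 3. The genotypes overlapped and both arrays 2 lay above both arrays 3. Its difference was -0.022 with a standard error of 0.22 (95% interval -0.64 to 0.59). The direction of the mean differences of Junb, Jund and Ier3 turned when arrays were shifted by the median in place of the 75th percentile, so no direction is given for them.

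Egr1, a zinc finger factor induced by the same serum response factor pathway as Fos, was measured at chr18:35024395-35024454. It gave 3.29 and 2.39 on WT 2 and WT 3, and 2.81 and 2.28 on KO 2 and KO 3. The highest value was a WT array and the lowest a KO array, with overlap between the genotypes. The group means were 2.84 ± 0.63 in WT and 2.54 ± 0.38 in KO (SD, n = 2). The mean was 1.23-fold lower in KO (-0.30, standard error 0.43, 95% interval -1.53 to 0.93), with -0.48 at number 2 and -0.12 at number 3. As for Fos, array 2 exceeded array 3 in both genotypes, by 0.90 in WT and 0.53 in KO.

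Ier2 and Ier3 are immediate early genes whose products lie outside the AP-1 family, Ier2 being a nuclear protein and Ier3 a stress-inducible regulator of survival signalling. The brighter Ier2 probe, at chr8:87185211-87185245, gave 0.90 and 0.62 on WT 2 and WT 3, and 1.0 and 0.75 on KO 2 and KO 3. Values of the genotypes interleaved, and KO differed by 0.12, standard error 0.24 (95% interval -0.58 to 0.81). The dimmer Ier2 probe, at chr8:87183623-87183681, gave -3.95, -4.60, -4.01 and -4.10 in the same order, also overlapping. Ier3, at chr17:35959528-35959587, gave 1.51 and 1.13 on WT 2 and WT 3, and 1.41 and 1.21 on KO 2 and KO 3. Both of its KO arrays lay between the WT arrays (difference -0.012, standard error 0.26, 95% interval -0.74 to 0.72).

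**Figure D3:**
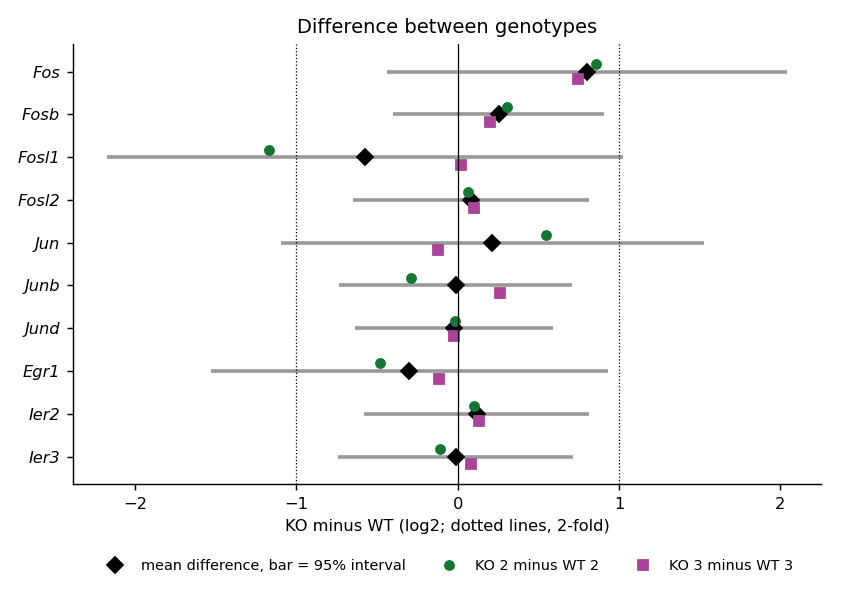
KO minus WT on the log2 scale for the 10 genes, with diamonds for the mean difference, bars for its 95% interval from limma, green circles for number 2 and purple squares for number 3. Every interval spans 0, Fos has both numbers near 0.80, and Fosl1 has -1.17 at number 2 with 0.020 at number 3.

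The arrays numbered 2 and 3 also differed across the members. Array 2 exceeded array 3 in both genotypes for 7 of 10 members, Fos, Fosb, Jun, Jund, Egr1, Ier2 and Ier3, against 38% of tested genes. In both genotypes array 3 exceeded array 2 for Fosl1 and Fosl2, an order for which no share of all genes is given. The sign of the genotype difference was opposite at the 2 numbers for 4 members, Fosl1, Jun, Junb and Ier3, against 55.8% of genes. The median difference of the members was 0.022 at number 2 and 0.093 at number 3, and that of all tested genes 0.043 and 0.028. Since the arrays numbered 2 differed from those numbered 3 in Xist and Ddx3y as well, the sex that these transcripts mark and any other difference between the numbers cannot be told apart.

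The rest of the immediate early programme was read from lists. Of 14 further tested immediate early transcription factors, 9 were higher and 5 lower on average in KO, beside 44.9% of all genes lower. Their median was 0.055. With quantile normalization the split was 7 and 7 and the median -0.010, beside 49.7% of all genes lower. None passed the threshold, 2 had both KO arrays above both WT arrays and 1 both below, beside 13.3% and 8.9% of all genes. Csrnp1, a nuclear protein first described as induced by Axin, was highest on KO 2, at 2.83 with 2.16 for KO 3, whereas WT 2 gave 1.92 and WT 3 gave 1.86. Klf2, a flow-responsive factor of endothelium, had a mean of 4.53 in WT and 4.92 in KO, and Nr4a2, an orphan nuclear receptor, 0.52 and 0.15. Nr4a3 and Egr4 were too dim for testing.

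Other tested immediate early genes numbered 21, among them genes for phosphatases, RNA-binding proteins and signalling inhibitors. Of these 21, 17 were higher and 4 lower on average in KO, beside 44.9% of all genes lower. With quantile normalization the split was 15 and 6, beside 49.7% of all genes lower. The median was 0.097, none passed the threshold, and 5 separated with KO above WT and 1 with KO below, beside 13.3% and 8.9% of all genes. Dusp1, the phosphatase that inactivates MAP kinases, gave 2.04 and 1.68 on WT 2 and WT 3, and 2.65 and 2.21 on KO 2 and KO 3, a difference of 0.57 with a standard error of 0.29. Its arrays fell in the order of those of Fos, KO 2, KO 3, WT 2 and WT 3. Zfp36, which destabilises AU-rich transcripts, gave 1.24 and 1.18 on WT 2 and WT 3, and 2.17 and 1.40 on KO 2 and KO 3, a difference of 0.58 with a standard error of 0.35. Its relative Zfp36l1 had means of 4.53 in WT and 4.15 in KO, with both KO arrays below both WT arrays. No probe was matched to Dusp5 by name, so it was not measured.

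Of 12 further AP-1 subunits and bZIP partners, 3 were higher and 9 lower on average in KO, beside 44.9% of all genes lower. Their median was -0.091, and the split was 5 and 7 with the shift by the median, beside 41.1% of all genes lower. Atf3, a stress-induced factor that pairs with Jun proteins, gave 0.37 and 0.57 on WT 2 and WT 3, and 2.35 and 1.26 on KO 2 and KO 3. It was 2.52-fold higher in KO, and its limma p was 0.0454 before and 0.9999 after adjustment. Batf3, a partner of Jun proteins in dendritic cells, had means of -0.56 in WT and -1.37 in KO, and the small Maf protein gene Mafg 1.98 and 1.85, with both KO arrays below both WT arrays for each. The mean difference of Batf3 came from number 2, at -1.60, with -0.018 at number 3.

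Among 18 tested kinases, ternary complex factors and corepressors that act upstream, 7 were higher and 11 lower on average, beside 44.9% of genes lower. Their median was -0.049, and the split was 4 and 14 with quantile normalization, beside 49.7% of all genes lower. Separated genotypes were seen for 2 with KO above WT and 2 with KO below, again beside 13.3% and 8.9%. Rps6ka1, which encodes a ribosomal S6 kinase that phosphorylates Fos and Srf, had means of 0.16 in WT and 0.49 in KO, and the Srf coactivator gene Mrtfb -3.66 and -3.43. The ternary complex factor gene Elk4 had means of 0.25 in WT and 0.11 in KO, and Mapk8, which encodes the Jun kinase JNK1, 0.12 and -0.0020. Elk1 was too dim for testing.

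AP-1 target genes did not follow a single direction at the array numbers. Of 18 tested, 15 were lower and 3 higher on average in KO, beside 44.9% of all genes lower. The split was 13 and 5 with the shift by the median, beside 41.1% of all genes lower. The median of the 18 was -0.61, but it was -1.34 at number 2 and 0.30 at number 3. Opposite signs at the numbers were seen for 14, beside 55.8% of all genes with opposite signs in either order. In all, 13 of the 18 were lower in KO at number 2 and higher at number 3. No share of all genes is given for that order, so the count is not read as a result about these targets. Mmp3 (stromelysin), a metalloproteinase whose promoter holds the classic AP-1 site, was an exception with both KO arrays below both WT arrays, at 0.44 and 1.64 on WT 2 and WT 3, and -0.96 and -0.26 on KO 2 and KO 3. It was 3.14-fold lower in KO, with a limma p of 0.0427 before and 0.9999 after adjustment. The growth factor gene Hbegf had means of 1.95 in WT and 1.83 in KO and separated the same way, by little. The list's mean level was lowest on KO 2, at -0.054 there and 1.15, 1.37 and 1.57 for WT 2, WT 3 and KO 3. The macrophage, neutrophil, fibroblast, smooth muscle, T cell and B cell marker means were lowest on KO 2 as well. The smooth muscle mean was 2.23 on KO 2 and 2.40 on WT 2, and its markers were mixed. Smtn was highest on KO 2, at 1.97, and Acta2 lowest there, at 4.15. The part of all these cell types in the values of the list was not tested.

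Of 9 Egr1 targets, 3 were higher and 6 lower on average in KO, with a median of -0.19, of -0.38 at number 2 and of 0.29 at number 3. The split of the 9 was 4 and 5 with normexp and 2 and 7 with quantile normalization. Over all genes 44.9% were lower, or 36.8% with normexp and 49.7% with quantile normalization. Pdgfb, which encodes a platelet-derived growth factor chain, had means of -0.78 in WT and -0.41 in KO, and the adhesion receptor gene Icam1 2.62 and 2.28, with separated genotypes for each. Over all these lists, 92 genes were tested and none passed the threshold. An unadjusted limma p under 0.05 was reached by 2, Atf3 and Mmp3, beside 1.43% of all genes. Separated genotypes were seen for 11 with KO above WT and 9 with KO below, beside 13.3% and 8.9% of all genes.

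**Figure D4:**
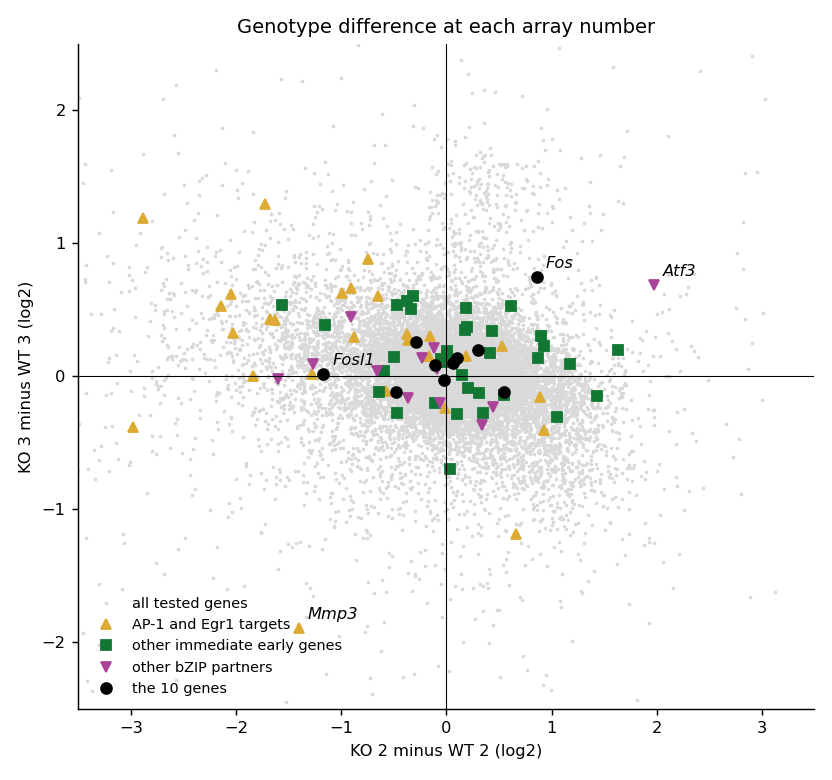
KO minus WT on the log2 scale at number 2 (horizontal) and at number 3 (vertical), with black circles for the 10 genes, coloured symbols for related lists and grey points for all tested genes, of which 88 lie outside the axes. Fos and Atf3 lie on the upper right, Mmp3 on the lower left, and most AP-1 targets on the upper left.

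**Figure D5:**
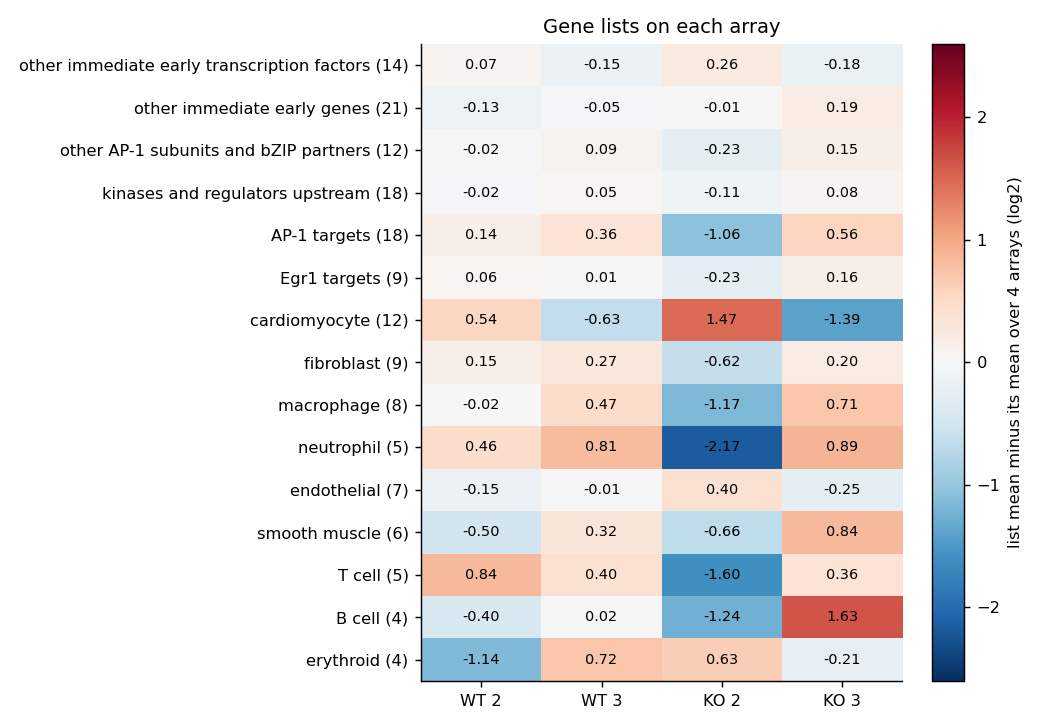
Mean log2 level of each gene list on each array minus the list's mean over the 4 arrays, with the number of tested genes in brackets. The cardiomyocyte list is highest on KO 2 and lowest on KO 3, the neutrophil, macrophage, fibroblast, smooth muscle, T cell, B cell and AP-1 target lists are lowest on KO 2, and the other immediate early lists vary less.

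The genes whose 4 values ran closest to those of Fos, by the root mean square distance between centred profiles among 14371 genes outside the members, were Slc2a2 (0.027), Tg (0.043), Cenpp (0.048), Crybb1 (0.050) and Ripor2 (0.073). Among the members the nearest to Fos were Jun, at 0.33, and Fosb, at 0.39. For Egr1 the closest were Slc35g3 (0.035), Olfr1395 (0.070), Rwdd3 (0.078), Gbp5 (0.079) and Nat8 (0.081), and among the members Ier3, at 0.26, and Ier2, at 0.32. With 4 arrays such distances describe only the shape of these profiles.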

How the data were processed

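Left ventricular RNA was measured on 4 Agilent arrays, 2 for each genotype, grouped by sample title. The authors deposited the intensity of each spot as written by Agilent Feature Extraction, version 10.7.3.1 per the file headers, with probe positions on mm9. They also deposited log2 values made with GeneSpring, whose normalization is not stated. On each array 99.9% to 99.96% of them matched quantile-normalized log2 signal to within 0.01, and every column had a median of 6.784.

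The log2 processed signal was shifted by the 75th percentile of each array over non-control probes. Flagged spots, 92 to 116 per array, were left out and spots of a probe were averaged. Of 41174 probes, 68.15% to 72.05% exceeded background clearly. Testing required this on both arrays of 1 group or more, which kept 28305, with 12863 too dim and 6 lacking a value. A gene took its tested probe with the highest mean. Probes were named through the RefSeq table of GRCm38.p6, 31437 by symbol, 2197 through a former symbol and 91 through an accession, and 7449 stayed unnamed.

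Genotypes were compared with lmFit and eBayes of limma 3.58.1 (R 4.3.3), a step tested on simulated data. The smallest two-sided p of an exact permutation test with 2 arrays a group is 0.333. The limma p-values weigh each difference against the spread between these samples, moderated by a prior over all tested probes. Nothing in the labels states that arrays came from separate animals, so that spread may not be one between animals. The number of arrays limits the precision. The members, lists and tests were chosen with earlier results of these data known.

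All members were named, with Kdm5b, Xist, Ddx3y and Atf3, the 2 largest rises and 2 largest falls with separated genotypes of each pathway or target list among genes well above background on every array, and the 5 genes nearest to Fos and to Egr1. Marker lists of T cells, B cells, endothelium, fibroblasts, smooth muscle and erythroid cells are given by array in the plot of gene lists. The alternatives were quantile normalization, the median in place of the 75th percentile, normexp with an offset of 50, the authors' values, no filter or a filter on all 4 arrays, a block for the array number, the omission of each array, averaging a gene's probes, and the methods' t-test.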

Additional observations from a re-analysis of the deposited data

Results flagged for a closer look

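Xist had log2 processed signals of 14.13 for WT 2 and 13.24 for KO 2. On the arrays numbered 3 it was dim, with 1.92 for WT 3 and 2.01 for KO 3, below the level called well above background. It stands out as a signal outside the comparison of the members, in samples that are all labelled male. Ddx3y had 2.12 for WT 2 and 1.63 for KO 2, and 11.88 for WT 3 and 11.44 for KO 3. Each genotype held 1 array of either kind.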

How the results depend on the processing

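No probe and no member passed the threshold under the alternatives in which limma or the methods' t-test was run, which leaves out the averaging of a gene's probes. The lowest adjusted p of a member in limma was 0.1551, for Fosl1 without KO 3. Probes at an unadjusted p under 0.05 numbered 410, against 1162 with normexp, 723 with no filter on dim probes, 310 with the filter on all 4 arrays, 602 with the block, 879 by the methods' t-test (0 after adjustment), and, with an array left out, 125 (WT 2), 165 (WT 3), 1695 (KO 2) and 7278 (KO 3). Without KO 3, where the lone KO array is assumed to vary like the WT arrays and the spread comes from these alone and the prior over probes, Fos differed by 1.20, at an unadjusted limma p of 0.0391 and an adjusted one of 0.1847, and Fosl1 by -1.28, at an unadjusted one of 0.00754. The labels give same-numbered arrays nothing in common but the number, while Xist and Ddx3y also divide the arrays by number, and deviations from the group means correlated at 0.569 between the same numbers over 28305 probes. With the array number as a replicate block, which in this balanced design cannot move a mean difference (median of the members 0.035), the standard error of Fos was 0.24, at an unadjusted limma p of 0.0358 and an adjusted one of 0.9949. Members with separated genotypes, KO above WT, numbered 2, or 3 with the mean of all probes. With an array left out they numbered between 3 and 5, a count chosen after seeing the data, where fewer values make separation easier. For the counts of 3 to 5 no share of all genes is given, so they are not read as a result about the members. The median difference over the members ranged from -0.058 without WT 3 to 0.164 without WT 2. The member directions that turned with all arrays kept were, with the shift by the median, Junb at 0.016, Jund at 0.0070 and Ier3 at 0.017, and, with the mean of all probes, Junb at 0.010. With an array left out, 13 of 40 member values turned. The ranges were -1.28 to 0.13 for Fosl1, -0.079 to 0.24 for Fosl2, -0.32 to 0.74 for Jun, -0.21 to 0.18 for Junb, -0.097 to 0.053 for Jund, -0.75 to 0.15 for Egr1, -0.024 to 0.26 for Ier2 and -0.20 to 0.18 for Ier3. Fos ranged from 0.40 to 1.20 and Fosb from 0.13 to 0.38, where separated groups fix the direction. The cause of these changes was not tested.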
